A study of Arabidopsis thaliana with 31 samples.

Results

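Gene models whose names begin with ENSRNA, a naming scheme separate from the AT locus names of Arabidopsis, were examined in the poly(A)-seq alignments of Col. All reads whose gene name began with ENSRNA were taken, which gave 8994 of 2786281 reads (0.323%; 95% Clopper-Pearson interval, 0.316 to 0.330%) on 209 models, out of 19829 genes with a read. The other reads lay on 19505 nuclear AT-named genes (2771846 reads), 88 mitochondrial genes (5158 reads) and 27 chloroplast genes (283 reads). This library is 1 of the 31 samples of the series, and the others were not analysed here. Whole seedlings of wild-type Col, 2 weeks old, were used. The RNA was partially cut with RNase T1, an enzyme that cleaves single-stranded RNA 3′ of G, and selected on oligo(dT) beads. With an adaptor joined to the tail end of the RNA, the last base of a trimmed read stands next to the tail. Trimming removed A and interspersed G at the end of a read, so bases of this kind that the gene encodes were lost with the tail and the true end may lie further downstream. There are no replicates. Intervals of shares treat each read as independent, although many reads repeat the start and end of another, so they may be too narrow. The interval of a median over models treats models as independent, although some of them share read intervals.

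The ENSRNA names were taken for models of structural RNAs. The files used here give no name, class, position or sequence to any of these models, and the annotation used did not contain their names, so no model is named by function below. Structural RNAs work as RNA. Ribosomal RNAs (rRNAs) form the core of the ribosome, small nuclear RNAs (snRNAs) assemble the spliceosome, small nucleolar RNAs (snoRNAs) guide the modification of rRNA, and transfer RNAs carry amino acids. Most of their mature forms have no long poly(A) tail. In yeast and in plants, short tails of A are known on precursors and fragments of such RNAs that the nuclear exosome trims or degrades. The length and bases of the tails were not analysed here.

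The models were compared with AT-named genes that the reference annotates as structural RNAs. No other class of gene was compared by read intervals, so the comparison does not test the label. Models were set beside these genes by their reads alone, by the intervals from first to last base, allowing a shift between the coordinates of the model and of the gene. The sequences of 6 AT-named genes that matched in this way are printed because they show where such reads ended, which the models themselves could not show without a sequence. Each line gives the 20 bases up to the most used 3′-end in lower case and the next 10 bases of the genome in capitals, from the RefSeq assembly TAIR10.1.
U2.10 (AT2G04375), snRNA, chr2:849953-849982, plus strand: cacgggcctggctcaacccgCCAATTTTAA
U2.10b/12 (AT2G04455), snRNA, chr2:853035-853064, plus strand: catgggcctggctcaacccgCCAATTTGAA
U6-26 (AT3G13855), snRNA, chr3:4561187-4561216, plus strand: gagaaatggtccaaatttttTTTGCAAAAT
U1.5 (AT1G08115), snRNA, chr1:2538066-2538095, minus strand: gcgttcgcgcagcccctaccATTAGTTCCA
AT2G01010, rRNA, chr2:5494-5523, plus strand: aacctgcggaaggatcattgTCGATACCTG
AT4G04205, snoRNA, chr4:1122833-1122862, plus strand: ctacaattatctgactaattGGCTCTTTCT
None of these 3′-ends stood before a run of A in the genome. The base after the end was an A in U1.5 alone, where 1 A followed, and in the other 10 of the 11 matched genes it was another base.

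Reads were concentrated on few models. The median model had 5 reads (quartiles, 2 and 26), 52 models had 1 read, 75 had 2 to 9 and 82 had 10 or more. At the other end, 19 models had 100 or more reads, and 7 models together held 50.4% of all ENSRNA reads. ENSRNA049495691 alone held 1685 reads (18.7%; 17.9 to 19.6%), more than the 762 of ENSRNA049493837, which came next. The 12 models with the most reads held 5573 reads (62.0%), while the 127 models with fewer than 10 reads held 353 (3.92%). For comparison, the median nuclear AT-named gene had 21 reads (quartiles, 6 and 63).

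**Figure D1:**
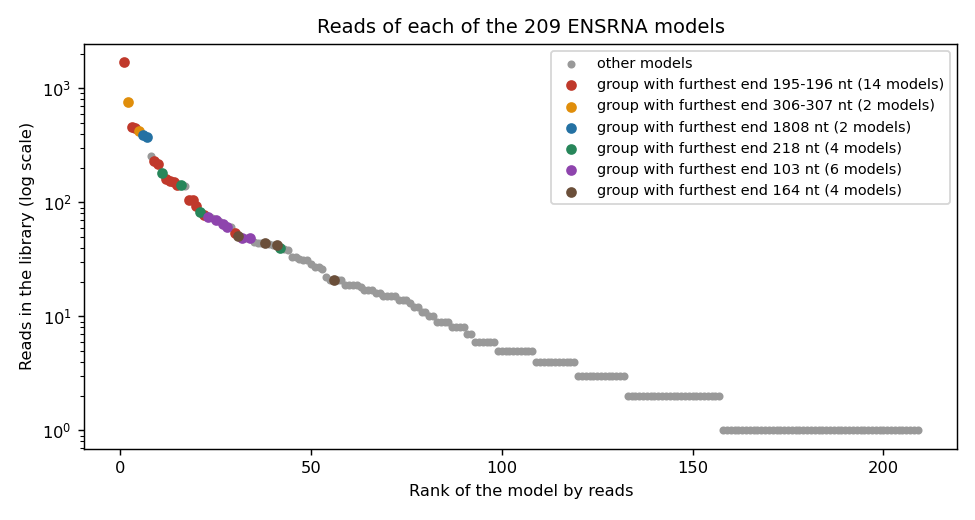
Reads of each of the 209 ENSRNA models (y axis, log scale) against the rank of the model (x axis). Each point is 1 model, and colours mark groups of models that shared read intervals and a similar furthest 3′-end. The groups at 119 and 117 nt are not coloured and are drawn in grey with the other models. The 14 models that reached 195 or 196 nt, in red, range from 54 reads to the top of the curve at 1685, with other models between them. At the lower end, 52 models lie at 1 read.

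Nearly all reads were listed on the sense strand of their model. This held for 8987 of the 8994 reads (99.92%; 99.84 to 99.97%), against 95.5% of the reads on nuclear AT-named genes, 98.3% on mitochondrial and 85.2% on chloroplast genes. The 7 antisense reads fell on 5 models with 1 to 3 reads each. ENSRNA049493580 had 2 antisense reads and 1 sense read, ENSRNA049758107 had 2 antisense reads and no other, and ENSRNA049494355 had 1 antisense read and no other. The last 2 antisense reads were the single reads of ENSRNA049757865 and ENSRNA049758122, which were named after their values were seen. All reads of these 5 models had a mapping quality of 0 or 1, and none of the 58 models with 20 or more reads had an antisense read.

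The mapping quality of the aligner, which runs from 0 to 42 and is low when another target fits about as well, was mostly at its lowest values. A score of 0 or 1 was given to 6963 ENSRNA reads (77.4%; 76.5 to 78.3%), against 42.9% of the reads on nuclear AT-named genes, 7.31% on mitochondrial and 81.3% on chloroplast genes. A score of at least 10 was given to 1679 ENSRNA reads (18.7%; 17.9 to 19.5%), against 56.8% on nuclear AT-named genes. The full score of 42 was given to 501 ENSRNA reads (5.57%), against 52.6% on nuclear AT-named genes. Reads are listed by transcript, so on an AT-named gene a low score may also come from another transcript of the same gene. How much of the 42.9% this made up was not tested, and the classes may not be alike in this respect. All reads had a score of 0 or 1 in 145 of the 209 models. The read counts of these models are therefore uncertain, because a read that fits several copies is listed at 1 of them.

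**Figure D2:**
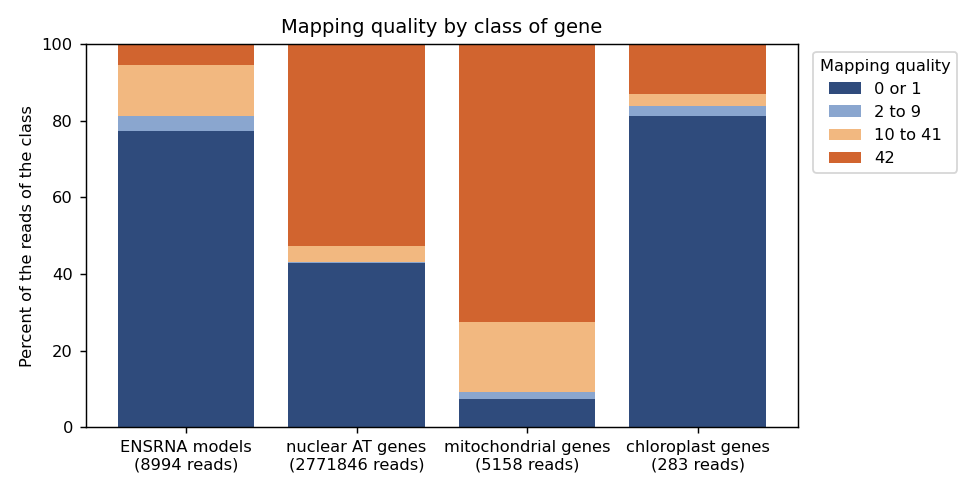
Share of reads (y axis, percent) by mapping quality in 4 classes of genes (x axis), with the number of reads of each class below its bar. ENSRNA models had 77.4% of their reads at a score of 0 or 1 and 5.57% at 42, against 42.9% and 52.6% for nuclear AT-named genes.

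A small number of models held the reads that were placed with more confidence. ENSRNA049493787 had 453 of its 459 reads at a score of at least 10, although only 7 had the full score of 42. ENSRNA049495714 had 243 of its 253 reads at 10 or more and 216 at 42, which was 43.1% of all ENSRNA reads with the full score. With the 144 such reads of ENSRNA049493837, these models held 50.03% of the ENSRNA reads with a score of at least 10. By contrast, ENSRNA049495691, the model with the most reads, had no read above a score of 1, and the same held for ENSRNA049493721 (445 reads), ENSRNA049493832 (421 reads), ENSRNA049494572 (389 reads), ENSRNA049451242 (371 reads), ENSRNA049495690 (229 reads) and ENSRNA049494583 (217 reads). Among the 58 models with at least 20 reads, 12 had most of their reads at 10 or more, 5 had most at 42, and 37 had none at 10 or more.

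The mapped part of the ENSRNA reads was short. Its median was 31 nt (quartiles, 25 and 62 nt), against 58 nt (38 and 83 nt) on nuclear AT-named genes, 92 nt on mitochondrial and 63 nt on chloroplast genes. Reads of at most 30 nt made up 49.3% of the ENSRNA reads (48.3 to 50.3%) and 15.2% of those on nuclear AT-named genes. Models with many reads differed in this length. The median was 26 nt for ENSRNA049495691, 78 nt for ENSRNA049495714 and 96 nt for both ENSRNA049494572 and ENSRNA049451242. In the 151 models with fewer than 20 reads, the median was 60 nt.

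Many reads repeated the start and end of a read already counted. This was the case for 6722 ENSRNA reads (74.7%; 73.8 to 75.6%), against 71.5% on nuclear AT-named genes, 74.6% on mitochondrial and 43.8% on chloroplast genes. Repeats were counted within a transcript, so reads of 1 gene listed at different transcripts were not counted as repeats of each other. The 8994 ENSRNA reads therefore stood on 2272 distinct intervals. Repeats were uneven between models. ENSRNA049495691 had 1685 reads on 46 intervals, or 36.6 reads per interval, whereas ENSRNA049451242 had 371 reads on 154 intervals, or 2.41 per interval. With each interval counted once, the order of the models changed. ENSRNA049451242 came first with 154 intervals, ENSRNA049493837 next with 137, then ENSRNA049494572 with 134 and ENSRNA049493832 with 77, while ENSRNA049495691 stood at place 9. Whether repeats were copies of 1 molecule or separate molecules with the same ends could not be told apart.

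**Figure D3:**
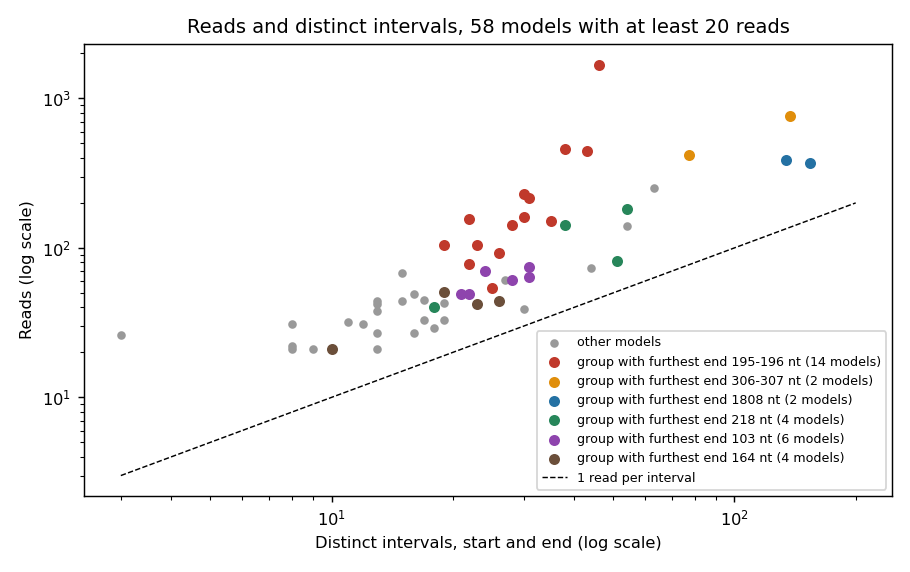
Reads (y axis, log scale) against distinct intervals of start and end (x axis, log scale) for the 58 models with at least 20 reads, with 1 point per model and a dashed line at 1 read per interval. ENSRNA049495691 is the red point at 46 intervals and 1685 reads, and the blue points at 134 and 154 intervals are the 2 models that reached 1808 nt.

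The 3′-ends of most models were narrow. In the 58 models with at least 20 reads, the median number of distinct 3′-ends was 5 (quartiles, 3.25 and 7), and 49 models had at most 10. The most used 3′-end held a median of 60.3% of the reads of a model (interval of the median, 51.5 to 66.2%; range over models, 30.8 to 100%). This end was the furthest position any read of the model reached in 39 models, and it lay within 2 nt of that position in 56. In all, 7579 of 8283 reads (91.5%; 90.9 to 92.1%) ended within 5 nt of the furthest end. The furthest end bounds the length of a model from below. Over all 209 models its median was 117 nt (quartiles, 89 and 151), and it lay beyond 310 nt in 3 models. The 151 models with fewer than 20 reads had a median furthest end of 112 nt (quartiles, 84.5 and 119), and 68.9% of the 711 reads on them scored 0 or 1. Of these models, 97 had at least 2 sense reads, and in 32 of those every sense read ended at the same base.

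The models with the highest share on a single 3′-end had few reads. All 21 reads of ENSRNA049495566 ended at position 135, and 19 of them had a mapping quality of 42. ENSRNA049494377 had 20 of 21 reads at position 119, and ENSRNA049495574 had 46 of 49 (93.9%) at position 99. In ENSRNA049495574, 8 reads ran from within 5 nt of the first base of the model to within 5 nt of the furthest end. Such reads that spanned nearly the whole length seen in the reads numbered 63 in 21 models, and 18 of them lay in 4 models with at least 20 reads. In a model with few reads, the furthest end can be that of the same read, so its true length may be greater.

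Among the 12 models with the most reads, 11 had most of their reads within 2 nt of the furthest end. ENSRNA049495691 had 1473 reads at position 196 and 200 at position 194. ENSRNA049493787 had 304 reads at 196 and 143 at 195. ENSRNA049493721 had 226 reads at 195 and 193 at 194, so neighbouring positions shared the ends about equally in this model. In ENSRNA049493837, the ends lay at 306 (452 reads), 307 (141 reads) and 305 (111 reads), and 34 reads ended at 159. ENSRNA049493832 had nearly the same ends, with 272 reads at 305, 88 at 306 and 52 at 304, but no comparable group of upstream ends. ENSRNA049495714 had 137 reads at 308 and 95 at 307.

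Internal ends were frequent in 3 of these 12 models. ENSRNA049494572 had 74 distinct 3′-ends and ENSRNA049451242 had 91, and both reached position 1808. In these, 250 of 389 reads (ENSRNA049494572) and 214 of 371 reads (ENSRNA049451242) ended within 5 nt of position 1808. The rest were spread along the model, most often at position 1648, with 15 reads in ENSRNA049494572 and 14 in ENSRNA049451242. ENSRNA049493783 was the only model of the 58 whose most used 3′-end lay far from its furthest end. Of its 181 reads, 69 ended at position 76 and 31 at 75, whereas 45 ended at 217 and 7 at its furthest end, 218. Its reads began at position 27 in 93 cases, and the interval from 27 to 76 alone held 60 reads.

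**Figure D4:**
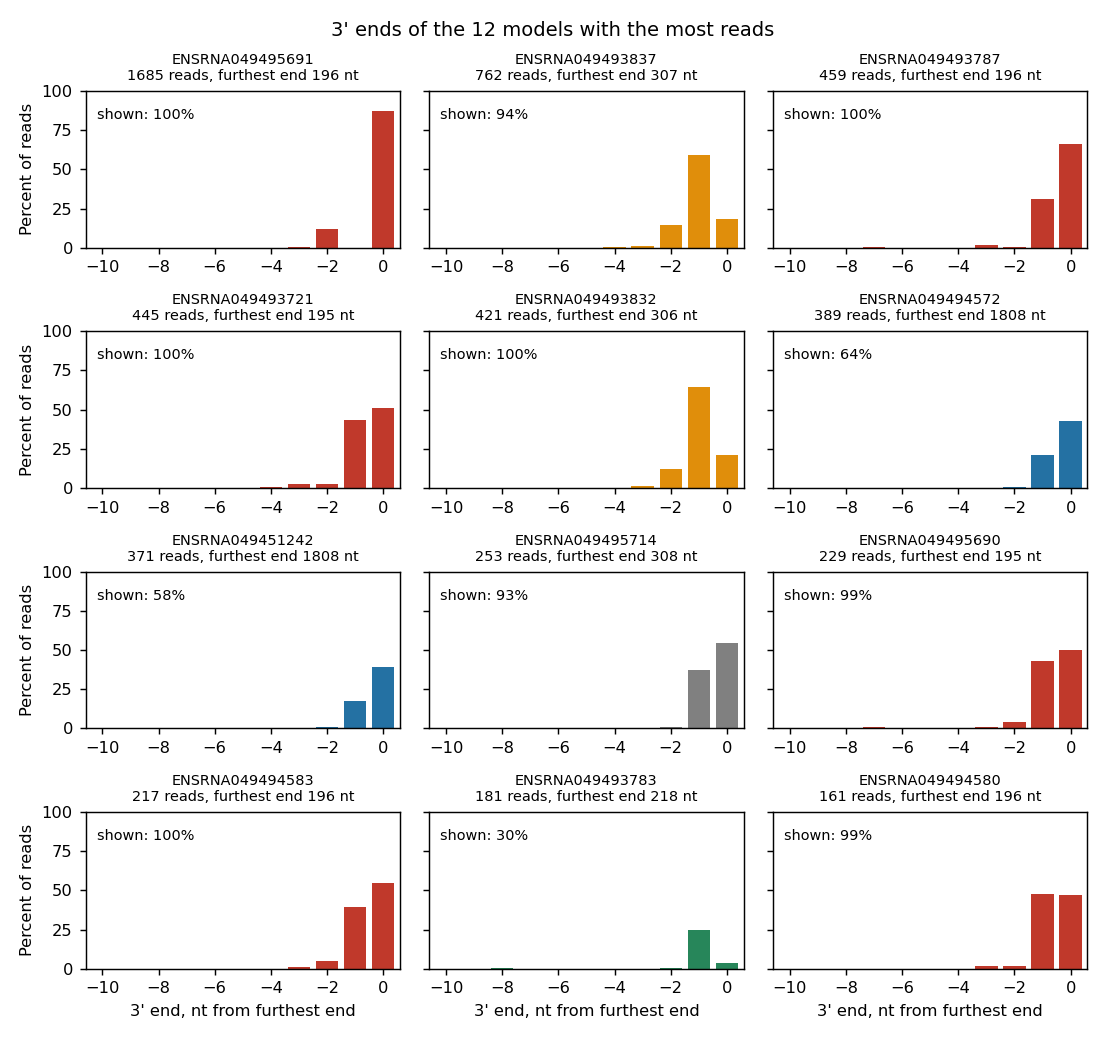
Share of reads (y axis, percent) by distance of the 3′-end from the furthest end of the model (x axis, nt), for the 12 models with the most reads. Each panel is 1 model and states the share of its reads inside the window shown. ENSRNA049495691 has 87.4% of its reads at the furthest end, while ENSRNA049494572, ENSRNA049451242 and ENSRNA049493783 have large shares outside the window.

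The furthest ends fell into a few lengths. The 58 models were ordered by furthest end and split wherever neighbours differed by more than 3 nt, which placed 52 of them in 8 ranges with 2 or more models. The range of 195 to 196 nt took 14 models with 4077 reads (45.3% of the ENSRNA reads). That of 303 to 308 nt took 6 models with 1660 reads (18.5%), position 1808 took 2 models with 760 reads (8.45%), and that of 217 to 219 nt took 7 models with 606 reads (6.74%). The ranges of 103 to 105 nt (7 models, 388 reads), 117 to 122 nt (8 models, 255 reads), 163 to 164 nt (5 models, 191 reads) and 131 to 135 nt (3 models, 107 reads) held the rest. Ranges differed in how firmly their reads were placed. A score of at least 10 was given to 92.5% of the reads at 131 to 135 nt, 42.4% at 217 to 219 nt, 30.7% at 303 to 308 nt and 12.1% at 195 to 196 nt, and to none of the 760 reads at 1808 nt or the 388 at 103 to 105 nt.

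Models of like length in part held the same read intervals. Pairs of the 58 models were joined when at least 40% of the reads of each lay on intervals that both models held, which put 36 models with 7110 reads (79.1%) into 8 groups. All 36 were among the 52 models in a length range, and the other 16 of these joined no group, such as 4 of 6 models at 303 to 308 nt and 3 of 3 at 131 to 135 nt. The largest comprised the 14 models of 195 to 196 nt. In it, 98.0% of the reads lay on intervals found in 2 or more of the models, and the interval from 170 to 196 held 757 reads over 12 of them, while no interval occurred in all 14. The reads of 11 of these models all had a mapping quality of 0 or 1. Only ENSRNA049493787 (453 of 459 reads at 10 or more), ENSRNA049495692 (32 of 78) and ENSRNA049494580 (9 of 161) had others. ENSRNA049495690 and ENSRNA049493721 overlapped in most of their reads, with 95.6% of the reads of ENSRNA049495690 and 92.1% of those of ENSRNA049493721 on shared intervals. The split of reads between the models of a group is uncertain, because a read that fits several models is listed at 1 of them.

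The other groups were smaller. ENSRNA049493837 and ENSRNA049493832 (1183 reads) had 44.3% of their reads on shared intervals. The models that reached 1808 nt (760 reads) had 69.3%, and the interval from 1712 to 1808 held 114 of their reads. A group of 4 models at 218 nt included ENSRNA049493783, which held 60 of the 61 reads on the interval from 27 to 76. All 6 models at 103 nt held the interval from 65 to 103, with 72 of 367 reads. A group of 4 models at 164 nt had 158 reads, all at a mapping quality of 0 or 1. The last 2 groups, at 119 and 117 nt, had 62 and 58 reads. ENSRNA049495714, with 253 reads, belonged to no group.

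Reads on AT-named structural RNA genes were counted in the same way. The reference lists 998 of them, of which 186 had a read, with 5193 reads in all. The sense share was 99.92% on ENSRNA models and 99.88% on these genes, the share with a mapping quality of at least 10 was 18.7% against 16.0%, the share of repeats 74.7% against 66.0%, and the median mapped length 31 nt against 37 nt. By type, 29 of 82 snRNA genes had 2624 reads, 130 of 287 snoRNA genes 1364 reads, 4 of 4 rRNA genes 1158 reads and 23 of 625 tRNA genes 47 reads. The snRNA reads had a median mapped length of 27 nt and the rRNA reads of 93.5 nt.

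In 26 of the 58 models, which held 5750 reads (63.9%), the read intervals matched those of an AT-named structural RNA gene. A match required 8 or more distinct intervals in common that held at least 40% of the reads of the model and of the gene. This comparison was chosen after the data were seen. It took in the 34 transcripts of such genes with at least 20 sense reads, which were 17 snRNAs, 13 snoRNAs, 4 rRNAs and 0 tRNAs, so a tRNA could not be matched. It joined 23 models to snRNA genes, 2 to rRNA genes and 1 to a snoRNA gene. A match describes reads and does not identify a model, and a free shift can bring together RNAs that have nothing in common but their read lengths. In 13 of the models the shift was at most 10 nt.

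All 14 models of 195 to 196 nt matched a gene of U2 snRNA, the snRNA that binds the branch point of introns. With no shift, 84.0% of the reads of ENSRNA049493721 and 96.1% of those of U2.10, whose end is printed above, lay on 14 shared intervals. U2.10 had 67 of its 76 reads (88.2%) at position 195, the last base of its annotation, while ENSRNA049493721 had 50.8% there and the rest mostly 1 nt upstream. ENSRNA049495691 matched U2.10b/12 with a shift of -1, so that position 196 of the model corresponds to 195 of the gene, with 63.9% of its reads and 96.2% of the 52 reads of the gene. ENSRNA049495691 had 1473 reads at 196, 1 at 195 and 200 at 194, while U2.10b/12 had 50 reads at 195, the counterpart of 196, and 2 at 194, the counterpart of 195, with no read at the counterpart of 194. Another 7 models, among them ENSRNA049493787 and ENSRNA049494580, matched U2.6 (AT3G56705) with a shift of 234, and 3 models, among them ENSRNA049494583, matched U2.4 (AT3G56825) with a shift of 594. U2.6 and U2.4 are annotated as 551 and 883 nt, and their reads ended mostly at positions 430 and 789, so that the ends lay 121 and 94 nt before the annotated ends. In sequence, the last bases there were ggctcaacccgc in both genes, against ggctcaacccg in U2.10. The bases before the most used start were atgcgttgca in U2.6, U2.4 and U2.10 alike. These starts and ends thus lay at the same stretch of sequence as those of U2.10, within 1 base. All reads of ENSRNA049493721 and ENSRNA049495691, and 83.5% of the reads on snRNA genes, had a mapping quality of 0 or 1. A read could thus be listed at a model or at a gene, and their counts and ends may not be separate measurements.

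The models that reached 1808 nt matched rRNA genes with no shift. ENSRNA049494572 had 75.1% of its reads, and AT2G01010 74.7%, on 50 shared intervals, and ENSRNA049451242 had 70.1% of its reads, and AT3G41768 76.0%, on 66. Both genes are annotated as 1808 nt long. The end at 1808 held 42.9% of the reads of ENSRNA049494572 and 46.7% of those of AT2G01010, and 39.4% of the reads of ENSRNA049451242 and 42.8% of those of AT3G41768. Internal ends recurred as well. Position 1648 had 15 and 14 reads in ENSRNA049494572 and ENSRNA049451242, and 14 and 18 in AT2G01010 and AT3G41768. Position 1290 had 8 and 6 reads in the models, and 7 and 9 in the genes. As no read of the models and none of the rRNA genes had a mapping quality of at least 10, a read could be listed at any of these copies, and the counts are not separate measurements.

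**Figure D5:**
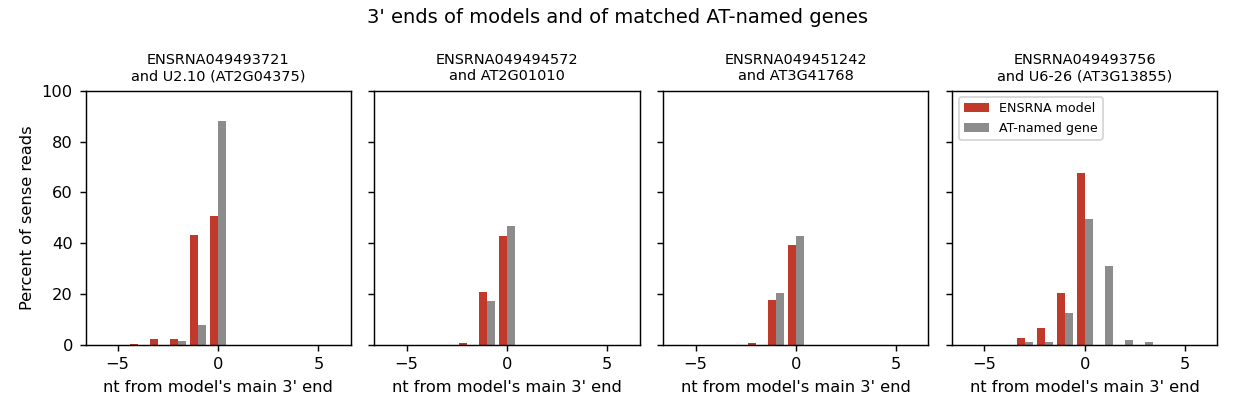
Share of sense reads (y axis, percent) by distance of the 3′-end from the most used 3′-end of the model (x axis, nt), for 4 ENSRNA models (red) and the AT-named genes whose read intervals they matched (grey, their 10 most used ends), after the shift of the match. The ends coincide at 0 in each panel, which the choice of the shift by shared intervals favours. ENSRNA049493721 has 50.8% of its reads there against 88.2% for U2.10. Not all matches coincide: the most used 3′-end of ENSRNA049493832 corresponds to position 414 of U6-29, whose own is 413.

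The 6 models at 103 nt matched U6-26, a gene of U6 snRNA, which takes part in the catalytic core of the spliceosome. The shift was -8 in all of them, with 62.5 to 77.1% of the reads of the models and 48.5 to 55.7% of those of the gene on shared intervals. Every read of these models had a mapping quality of 0 or 1, so here too the counts may not be separate from those of the gene. ENSRNA049493756 had 67.6% of its 74 reads at position 103, which corresponds to position 95 of U6-26. U6-26 had 48 of 97 reads (49.5%) at 95 and 30 at 96, within the run of T that the sequence above shows. ENSRNA049495693 matched U1.5, a gene of the snRNA that binds 5′ splice sites, and ENSRNA049493447 matched U6acat (AT5G40395), a gene of the minor spliceosome. ENSRNA049493914 matched the snoRNA gene AT4G04205, where 23 of 38 reads ended at the last annotated base. All 51 reads of ENSRNA049495693, 43 of ENSRNA049493447 and 31 of ENSRNA049493914 had a mapping quality of 0 or 1. The counts of these models may likewise not be separate from those of the genes. ENSRNA049493832 met the criteria with U6-29 (AT5G46315) at a shift of 109, with 47.0% of its reads, but ENSRNA049493837, which shared its intervals, did not match. The other 32 models, among them ENSRNA049493837, ENSRNA049495714 and ENSRNA049493783, matched none of the 34 transcripts under these criteria, and 1 of them had fewer than 8 distinct intervals and could not match.

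The starts of the reads were read from the matched genes as well, because the sequence before a start can show where the RNA was cut. Each line gives 10 bases before the most used first base in lower case and the first 10 bases of the reads in capitals, from TAIR10.1.
U2.10 (AT2G04375), chr2:849937-849956, plus strand: atgcgttgcaCTACTGCACG
U6-26 (AT3G13855), chr3:4561159-4561178, plus strand: ccctgcgcaaGGATGACACG
AT2G01010, chr2:5407-5426, plus strand: gtggttcgccGCCCGCGACG
The start shown for U2.10 is position 170, where 19 of its 76 reads began, and in ENSRNA049493721, which matched this gene with no shift, 204 of 445 reads began at position 170. The start shown for AT2G01010 is position 1712, with 75 of 375 reads there and 95 of 389 in ENSRNA049494572. The share of reads with a G directly before the first base differed between the 11 matched genes. It was 33.9% in AT2G01010 and 27.3% in AT3G41768, where G made up 27.4% of the bases, and 4.87% in U2.4, where G made up 17.4%, and it was lowest in U2.10b/12 (3.85%, with 22.1% G). The G content was taken from the first annotated base to the furthest read end. In U2.4 the most used start was position 764, so its G content mostly describes bases before that start and is no base rate for the starts. Over the 11 genes together, the share with a G was 15.0% at 1 base before the start, 18.5% at 2, 42.9% at 3 and 25.8% at 4. Further upstream it was 16.1% at 5 bases, 37.8% at 6, 34.5% at 7 and 46.6% at 8. Of the 2193 reads counted at 1 base, 718 lay on U2.4, 421 on AT3G41768 and 375 on AT2G01010. The 10 bases before the most used start were the same in all matched U2 genes, and the same in both rRNA genes. The pooled shares therefore partly repeat a few sequences, and the reads are not separate observations of a pattern. Whether these starts were cuts by RNase T1 was not tested.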

How the data were processed

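Poly(A)-seq was analysed for 1 Col library of 31 samples in the series. Samples of the other assays were not analysed here. The authors trimmed the 3′-adaptor, random bases and poly(A) tail and aligned the reads with Bowtie2 to TAIR10, and removal of duplicates is not stated for this library. The deposited file lists each read with a transcript, start, end, strand and a mapping quality score of 0 to 42. Positions are 1-based within the model. Depth was 2786281 reads. Reads were counted per model, and a 3′-end was the last base of a sense read. Models with at least 20 reads were used for 3′-ends, and windows were 5 nt. Shares have 95% Clopper-Pearson intervals, and no test was made, because there is 1 library. Models named are the 12 with the most reads and the 3 each with the most antisense reads, most 3′-ends and highest share on 1 end, and the other models named were chosen after their values were seen. Members and lists were chosen with earlier results of these data known, and the joining and matching of intervals and the length ranges after seeing them. Scripts were tested on simulated data. RefSeq TAIR10.1 gave AT-named gene types and sequences. Python 3.11.15, numpy 2.4.6, pandas 2.3.3, scipy 1.17.1 and matplotlib 3.10.9 were used.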

Additional observations from a re-analysis of the deposited data

How the results depend on the processing

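Of 41 alternatives, 14 left the value within its interval or within 1.5 times the count, and 27 did not. With a mapping quality of at least 10, ENSRNA reads were 0.106% of all reads that passed it, on 51 models, the leading model (ENSRNA049493787) held 27.0%, 100% were sense, 73.0% were repeats, the median mapped length was 47 nt, the main 3′-end held a median of 66.7%, 86.6% ended near the furthest end, and 2 of the 15 models left with enough reads shared intervals, in place of 36 of 58. With identical reads counted once, these were 0.287% of all distinct intervals, 6.78% for the leading model (ENSRNA049451242), 99.7% sense, 46 nt, 40.7% at the main 3′-end and 70.4% near the furthest end. Without ENSRNA049495691, they were 0.262% of reads, 23.0% at a mapping quality of at least 10, 69.5% repeats, 39 nt and 89.4% near the furthest end. ENSRNA reads were 0.338% of sense reads and 0.281% of reads of at least 25 nt. The 10 leading models held 58.2%, and 82 models had at least 10 reads. Ends within 5 nt of the main one raised its median share to 97.5%, and 89.7% of the reads ended within 2 nt of the furthest end. A shift of at most 10 nt left 13 of 26 matches to AT-named genes. The interval and matching alternatives were chosen after seeing the data. The cause of these differences was not tested. No paired analysis was possible because all values come from a single library. The low mapping quality limits counts per model, and models under 20 reads give no reliable 3′-end.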
